A study of Arabidopsis thaliana and Zea mays with 36 samples.

Results

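The genes described here are 98 of the 27655 Arabidopsis thaliana genes measured, 0.354% of them, whose RNA held near its well-watered level through 3 drought levels and was then lower at DT5, the highest-numbered one. They were chosen by their own values. With x the log2 of the group mean in TPM (transcript abundance scaled to a fixed total per library) plus 1, x at DT5 lies at least 2 below x at DT4, and x at DT2, DT3 and DT4 each lies within 0.7 of x in well-watered plants (WW). Their levels in these groups are therefore a description and no test is given for them. Of the 98 genes, 50 carry a symbol in the RefSeq gene table, and the other 48 are named by locus with no role given.

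The libraries come from rosette leaves of the accession Col-0 in every group, grown at 22 °C with 16 h of light and 8 h of dark. Water supply was changed from 21 days after planting, giving a well-watered group, WW, and drought groups numbered DT2, DT3, DT4 and DT5, and no source used here gives the soil moisture behind each number. Each group has 2 biological replicates for linear RNA, each from leaves pooled from 4 plants, and 2 libraries for circular RNA (circRNA) from RNA treated with RNase R, which degrades linear molecules. The comparisons ask how leaf RNA differs between drought levels.

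Drought slows leaf growth and photosynthesis before it kills tissue, and plants respond through abscisic acid, a hormone that closes stomata and switches on protective genes. Leaf expansion depends on auxin, on factors that respond to light such as PIF4, and on enzymes that loosen the cell wall. Leaves of the mustard family also hold glucosinolates, defence compounds, and endoplasmic reticulum bodies, cell compartments packed with beta-glucosidases that act on such compounds.

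Linear values are TPM, which keep no sequencing depth, and 16814 to 17885 genes reached 1 TPM in a library. The leaf label matched its markers: RCA, the Rubisco activase, stood at 9740 and 9666 TPM in the WW libraries and LHCB5, a light-harvesting protein, at 6130 and 6560 TPM, while 4 root markers summed to at most 0.26 TPM in any library. Libraries of a group correlated at 0.977 to 0.988 over tested genes. The library DT4-1 correlated with DT5 at 0.930 and 0.921, more than DT4-2 did, at 0.898 and 0.889. Without DT4-1 the rule would take 187 genes, 91 of the 98 among them, and without DT4-2 it would take 52, with 48 of the 98. On the log2 scale the median tested gene exceeded WW by 0.42 at DT4, by 0.22 at DT3 and by 0.12 at DT2, and its step from DT4 to DT5 was -0.17.

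Summed over the 98 genes, TPM was 8426 and 7943 in the WW libraries. It was 8733 and 9416 in those of DT2, and 10088 and 9723 in those of DT3. The DT4 libraries held 6120 and 7860, and those of DT5 held 1258 and 886. The genes thus held 0.843% and 0.794% of all TPM in WW, and 0.126% and 0.0886% at DT5. In leaf tissue measured in bulk, fewer cells of a type and less RNA per cell cannot be told apart.

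**Figure D1:**
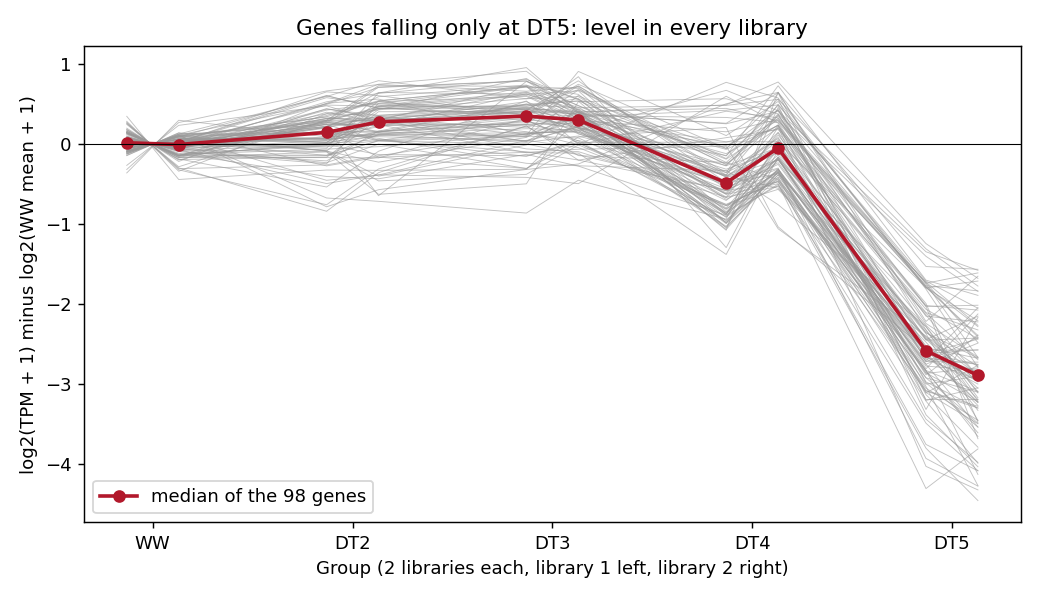
Level of each of the 98 genes in every library, as log2(TPM + 1) minus the log2 of the WW mean plus 1 (grey lines), with their median (red), in the groups WW, DT2, DT3, DT4 and DT5 with 2 libraries each. By group means the median distance from WW was 0.19 at DT2, 0.31 at DT3 and -0.27 at DT4, which the rule keeps within 0.7. The red line has DT4-1 below DT4-2 and is lowest in both DT5 libraries.

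The fall x(DT5)-x(DT4) ran from -3.94 to -2.01 with a median of -2.36, so that DT5 stood at a median of 15.1% of the DT4 mean and 12.3% of the WW mean. The mean level over WW to DT4 ran from 3.58 to 761 TPM with a median of 39.2 TPM, and 28 genes reached 100 TPM. Both DT5 libraries lay below all 8 other libraries in all 98 genes, against a background of 25.7% of tested genes; the rule used this contrast, so nothing is read from it. At DT5, 14 genes had a mean under 1 TPM and 7 had a library listed at 0. AT1G70470 was listed at 0 in both, so no fold is given for it. All 98 genes passed the filter on low values (at least 1 TPM in at least 2 libraries), which 18938 genes passed.

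Before DT5 the rule keeps the genes near WW, and within that range they took different courses. Their median distance from WW was 0.19 at DT2, 0.31 at DT3 and -0.27 at DT4, and the highest mean before DT5 fell at DT3 in 59 genes, at DT2 in 18, at DT4 in 14 and in WW in 7. At DT4 the mean lay below WW in 64 genes and above it in 34. Both DT4 libraries lay below both WW libraries in 43 genes, against 22.8% of tested genes, and above them in 15, against 60.6% of tested genes, while the libraries overlapped in 40. The rule bounds these distances, so the counts describe the genes chosen. DT4-1 lay below DT4-2 in 86 of the 98 genes, against 49.1% of tested genes, with a median gap of -0.41, and DT5-2 lay below DT5-1 in 77, against 64.2%, with a median gap of 0.37.

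The 98 genes are part of 534 that stood at least 2 lower at DT5 than at DT4. Of the others, 330 were already more than 0.7 below WW at DT4, 46 were more than 0.7 above it, and 60 left the range at DT2 or DT3. The mirror rule, a rise of at least 2 at DT5 alone, gave 74 genes. Nearest inside the threshold of the fall were MYB95 at -2.01, AT2G36145 at -2.01 and BGLU8 at -2.02. Nearest outside were AT2G29320 at -1.998, AT1G67590 at -1.99 and PRXR1 at -1.99.

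**Figure D2:**
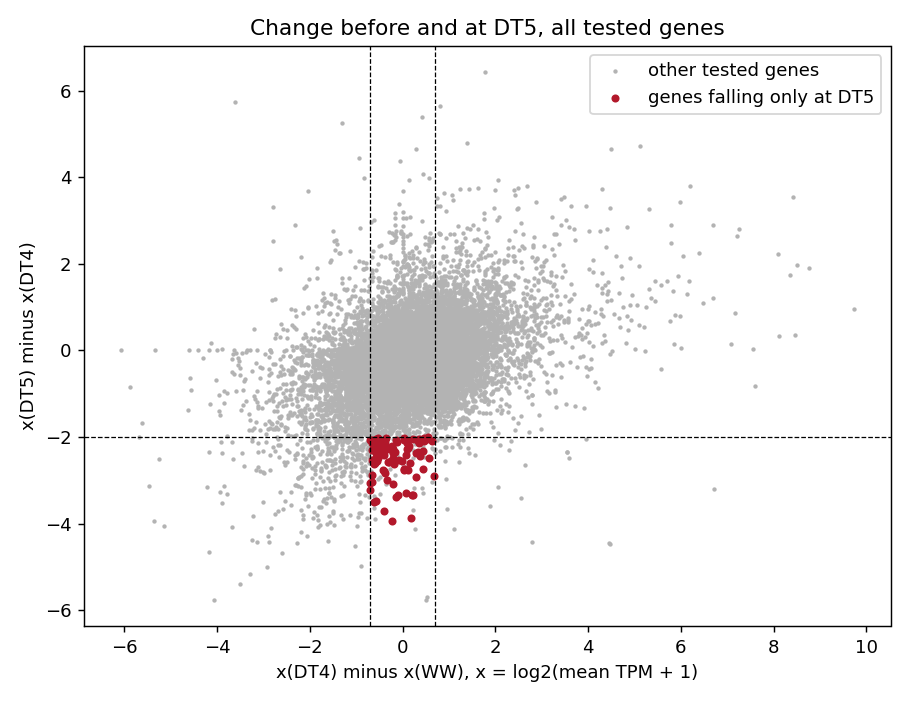
Change before DT5 (x axis, x(DT4) minus x(WW)) and at DT5 (y axis, x(DT5) minus x(DT4)) for each tested gene, x being log2(mean TPM + 1); dashed lines mark the limits of -2 and 0.7. Red points are the 98 genes, and grey points in the same window left it at DT2 or DT3.

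Of the genes with known roles, 32 were picked and sorted into 8 groups. This was done after their names and values had been seen, so the groups carry no test. The largest fall of a single gene, -3.94, was that of XTH31 in the cell wall group of 2 genes. The other gene of that group, AtkdsA1, had -2.34. XTH31, a xyloglucan endotransglucosylase/hydrolase that acts on the wall's xyloglucan, had 112 and 100 TPM in WW, then 105 and 115 (DT2), 126 and 130 (DT3), 56.9 and 123 (DT4) and 5.56 and 4.35 (DT5). The DT4 libraries straddled WW, and both lay above DT5. Its DT4 mean was 18.2 times its DT5 mean.

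Among chloroplast genes (7 genes, falls of -3.49 to -2.04), CaS, a thylakoid protein that takes part in calcium signalling, was the most abundant of the 98. CaS had 752 and 766 TPM in WW, then 895 and 892 (DT2), 898 and 903 (DT3), 418 and 567 (DT4) and 90.4 and 68.2 (DT5). NCED4, a carotenoid cleavage enzyme, had 386 and 359 TPM in WW, then 418 and 331 (DT2), 300 and 374 (DT3), 220 and 269 (DT4) and 25.7 and 16.0 (DT5). In both genes the DT4 libraries lay below all WW libraries, and DT5 lay far lower. CARAB-AK-LYS, an aspartate kinase on the way to lysine, had 172 and 174 TPM in WW, 84.1 and 129 at DT4, and 11.9 and 9.23 at DT5. CHUP1, which anchors chloroplasts to actin for their movement, had 180 and 193 TPM in WW and 37.4 and 19.7 at DT5. Their DT5 libraries lay below every library of the other groups. ARC5, a dynamin that splits dividing chloroplasts, had 101 and 96.5 TPM in WW, 97.1 and 121 at DT4, and 27.8 and 18.0 at DT5. CIA2, a regulator of chloroplast import and ribosomal genes, went from 36.0 and 36.9 TPM in WW to 7.40 and 6.99 at DT5.

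Growth under auxin and light was represented by 4 genes with falls of -3.03 to -2.33. PIN4, an auxin exporter, had 62.4 and 58.9 TPM in WW, then 82.1 and 77.8 (DT2), 85.0 and 88.1 (DT3), 28.8 and 47.3 (DT4) and 4.67 and 2.90 (DT5). PIN7, its close relative, had 89.3 and 85.1 TPM in WW, then 126 and 135 (DT2), 153 and 128 (DT3), 53.4 and 67.1 (DT4) and 10.6 and 9.24 (DT5). Both exporters thus had their highest libraries at DT3 and their DT4 libraries below WW. PIF4, the bHLH factor through which phytochrome controls stem and petiole growth, differed from them: 162 and 158 TPM in WW, 214 and 224 at DT4, and 48.0 and 37.7 at DT5, with no overlap between DT4 and WW. Its x(DT4)-x(WW) was 0.45 as deposited and -0.06 after the libraries were rescaled to a common median ratio, so its direction before DT5 flips with the scaling. SAUR68, an auxin-induced growth gene, had 5.94 and 8.65 TPM at DT4 and 0.41 and 0.79 at DT5.

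Organ and epidermal regulators (6 genes, falls of -3.70 to -2.03) were mostly expressed at low level, with a median of 8.89 TPM over WW to DT4. MYB16, a MYB factor of epidermal cell shape and cuticle, had 32.4 and 30.1 TPM in WW, then 31.3 and 32.4 (DT2), 27.9 and 32.2 (DT3), 22.0 and 25.1 (DT4) and 1.11 and 0.66 (DT5). Both DT4 libraries of MYB16 lay below both WW libraries, with x(DT4)-x(WW) at -0.39 as deposited and -0.89 after rescaling. Its DT4 mean was 26.6 times its DT5 mean, which was only 0.885 TPM. GL2, a homeodomain factor of trichomes and root hairs, had 8.81 and 6.81 TPM in WW, 12 and 10.4 at DT4, and 2.32 and 1.45 at DT5. ANT, an AP2 factor that keeps organs growing, had 2.83 and 7.91 TPM at DT4 and 0.53 and 0.58 at DT5. AS2, a factor of leaf polarity, had 3.88 and 6.95 TPM at DT4 and 0.77 and 0.04 at DT5, and GRF4, a growth-regulating factor, 5.02 and 9.12 against 0.93 and 0.95.

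Glucosinolate and endoplasmic reticulum body genes (5 genes) had falls within a narrow range, -3.06 to -2.76. CYP83A1, a cytochrome P450 of aliphatic glucosinolate synthesis, had 586 and 484 TPM in WW, then 484 and 579 (DT2), 655 and 540 (DT3), 284 and 376 (DT4) and 46.6 and 30.5 (DT5). MYB29, a MYB factor that switches on that pathway, had 121 and 98.6 TPM in WW, 74.0 and 95.6 at DT4, and 14.5 and 7.77 at DT5. The DT4 libraries of both genes lay below their WW libraries. BGLU18, a beta-glucosidase of endoplasmic reticulum bodies, had 599 and 408 TPM in WW, then 280 and 391 (DT2), 587 and 436 (DT3), 530 and 569 (DT4) and 122 and 38.1 (DT5). TSA1, needed for such bodies, had 116 and 90.2 TPM in WW, then 70.5 and 96.5 (DT2), 150 and 102 (DT3), 176 and 154 (DT4) and 28.5 and 14 (DT5). BGLU18 and TSA1 are neighbours on chromosome 1 with no protein-coding gene between them, and both had their lowest library before DT5 at DT2. Such neighbouring pairs also occur on chromosome 5, AT5G35480 with MRU1 and AT5G55450 with AT5G55460. JR1, a jasmonate-responsive lectin, had 269 and 178 TPM in WW, 190 and 163 at DT4, and 30.5 and 11.8 at DT5. BGLU18, MRU1 and JR1 had the widest gaps between the DT5 libraries of all 98 genes, 1.65, 1.48 and 1.30 on log2(TPM + 1).

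**Figure D3:**
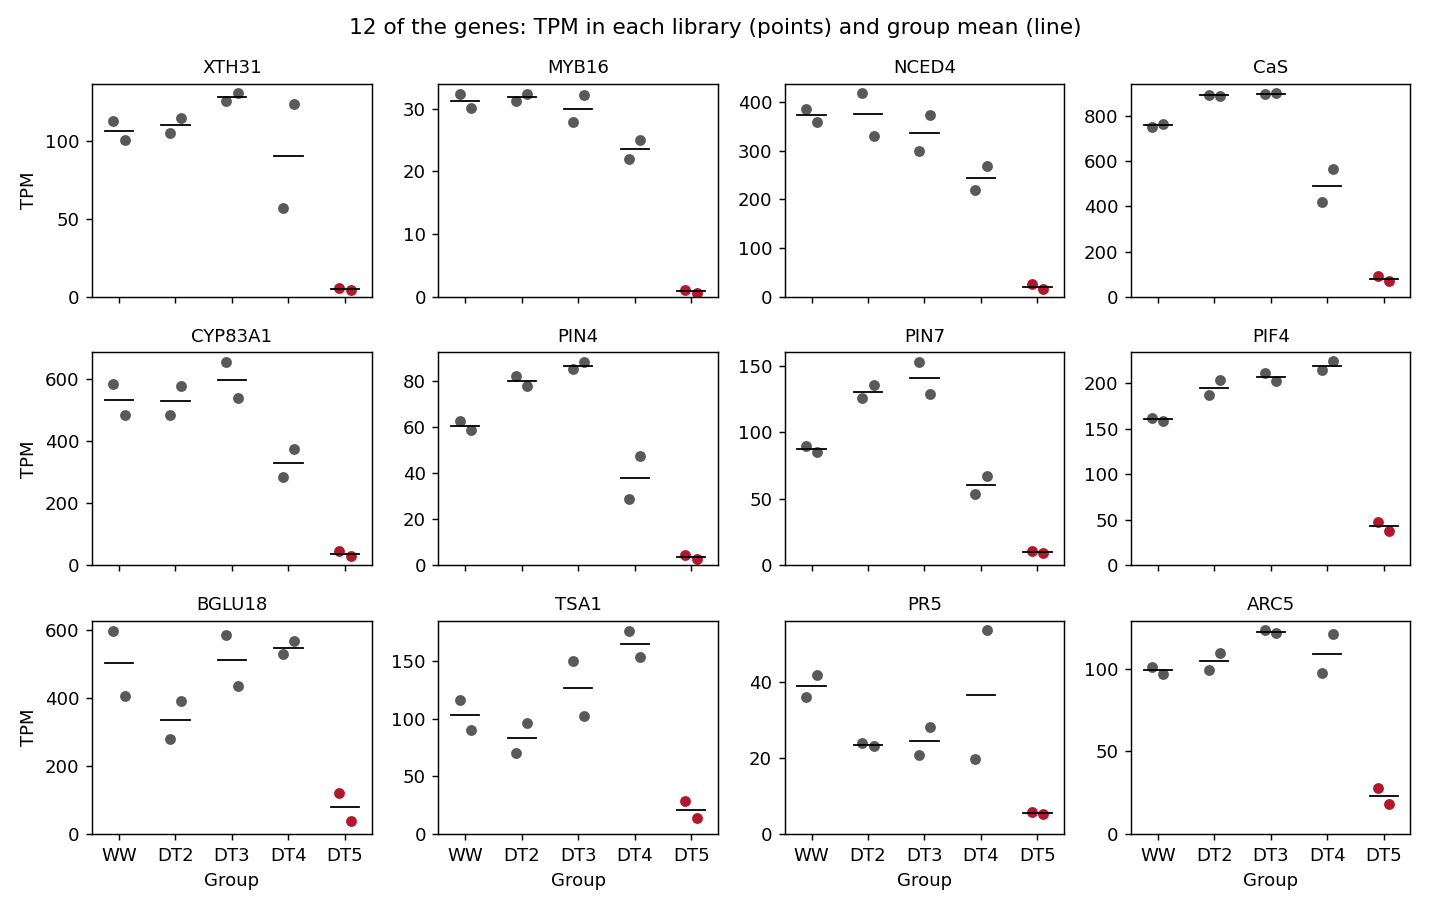
TPM (y axis, from 0, its own scale in each panel) of 12 of the genes by group; points are the 2 libraries, red for DT5, and lines their mean. The DT5 points lie below all others in each panel, and the DT4 points of XTH31 and PR5 lie far apart.

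Of 2 flavonol glycosyltransferases, UGT78D1 had 91.6 and 77.9 TPM in WW, 45.1 and 58.7 at DT4, and 13.1 and 9.91 at DT5, and UGT73B1 had 14.8 and 22.7, 9.96 and 16.5, and 1.70 and 1.83. Small signalling peptides were at high level: RTFL16 had 169 and 157 TPM in WW, 126 and 253 at DT4, and 16.7 and 18.8 at DT5, and RGF9 had 356 and 291, 270 and 404, and 52.0 and 46.9. The DT4 libraries of both peptides straddled WW. PR5, a pathogenesis-related protein that salicylic acid induces, had 35.9 and 41.8 TPM in WW, 19.7 and 53.5 at DT4, and 5.80 and 5.21 at DT5. PERK10, a proline-rich receptor-like kinase, had 97.9 and 93.8 TPM at DT4 and 21.8 and 13.8 at DT5, and CRK18, a cysteine-rich receptor kinase, 21.9 and 29.8 against 3.32 and 2.61.

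Of the 12 genes with the largest falls, 4 have no symbol. AT5G57340 had 34.8 and 32.5 TPM in WW, 55.5 and 54.9 at DT3, 29.5 and 47.3 at DT4, and 2.31 and 1.11 at DT5. AT4G01460 had 14.2 and 20.4 TPM at DT4 and 1.48 and 0.05 at DT5, and AT5G35480 had 30.2 and 33.2 against 1.44 and 2.44. These are among the lowest DT5 levels relative to DT4, at 4.46%, 4.42% and 6.12%. AT2G27385 was more abundant, with 209 and 214 TPM in WW, 203 and 284 at DT4, and 26.0 and 20.5 at DT5. MLP43, of the major latex protein family, had 142 and 165 TPM in WW, 96.3 and 169 at DT4, and 16.9 and 12.7 at DT5. LOL1, a zinc finger protein tied to cell death, had 28.1 and 47.7 TPM at DT4 and 3.73 and 2.00 at DT5. The DT4 libraries of AT5G57340, AT2G27385, MLP43 and LOL1 straddled or overlapped WW. Among the 12 most abundant genes without a symbol, AT5G38980 had 285 and 295 TPM in WW and 44.0 and 36.4 at DT5, and AT3G20820 had 215 and 199 in WW and 36.2 and 21.6 at DT5.

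Words in the gene names placed 6 of the 98 genes (6.12%) among transcription factors and DNA-binding proteins, against 1.97% of tested genes. They are BBX15, ATCTH, MYB29, MYB16, MYB95 and GL2. The words miss PIF4, ANT, AS2 and GRF4, so 6 is no count of the factors in the set. For transporter words the shares were 2.04% and 1.95%, for kinase words 4.08% and 2.48%, and for cytochrome P450 enzymes 3.06% and 0.681%. The kinase words matched PERK10 and CRK18, but also CARAB-AK-LYS, an aspartate kinase, and ANT, an AP2 factor, which are no protein kinases. The transporter words matched PIN4 and UMAMIT44 and miss PIN7. Neither share is therefore a count of its class. The shares were not tested. BBX15, a B-box zinc finger protein, had 333 and 347 TPM in WW, 281 and 328 at DT4, and 65.2 and 52.2 at DT5. ATCTH, a CCCH zinc finger protein, had 106 and 150 TPM in WW, 118 and 151 at DT4, and 15.3 and 10.1 at DT5. Words for cytochrome P450 enzymes also matched CYP96A12, with 20.8 and 38.7 TPM at DT4 and 5.50 and 6.37 at DT5, and CYP78A9, with 12.8 and 11.99 against 2.10 and 2.39. UMAMIT44, of an amino acid transporter family, had 20.6 and 32.2 TPM at DT4 and 5.93 and 3.47 at DT5. AT1G29720, matched through a synonym among cell wall words, had 20.2 and 25.6 against 4.82 and 2.86. The median gene length was 2230 bp against 2399 bp for tested genes.

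The set depends on how libraries are scaled. After the libraries were rescaled to a common median ratio, 24 of the 98 still met the rule, which then took 35 genes in all. Every one of the 98 still had a lower DT5 than DT4, by -3.78 to -1.85 with a median of -2.19, and 72 by at least 2. What moved was DT4 against WW, whose median over the 98 became -0.75, and 56 genes lay more than 0.7 below WW. The genes still within the rule include PIF4, ARC5, CIA2, TSA1, LOL1, RTFL16, RGF9 and CRK18, and those outside it include XTH31, MYB16, NCED4, CaS, CYP83A1, PIN4 and PIN7. For 59 of the 98, DT2, DT3 or DT4 lay outside 0.7 of WW after rescaling. That these genes held their level until DT4 therefore rests on TPM as deposited, while the others stayed within 0.7 under both scalings.

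**Figure D4:**
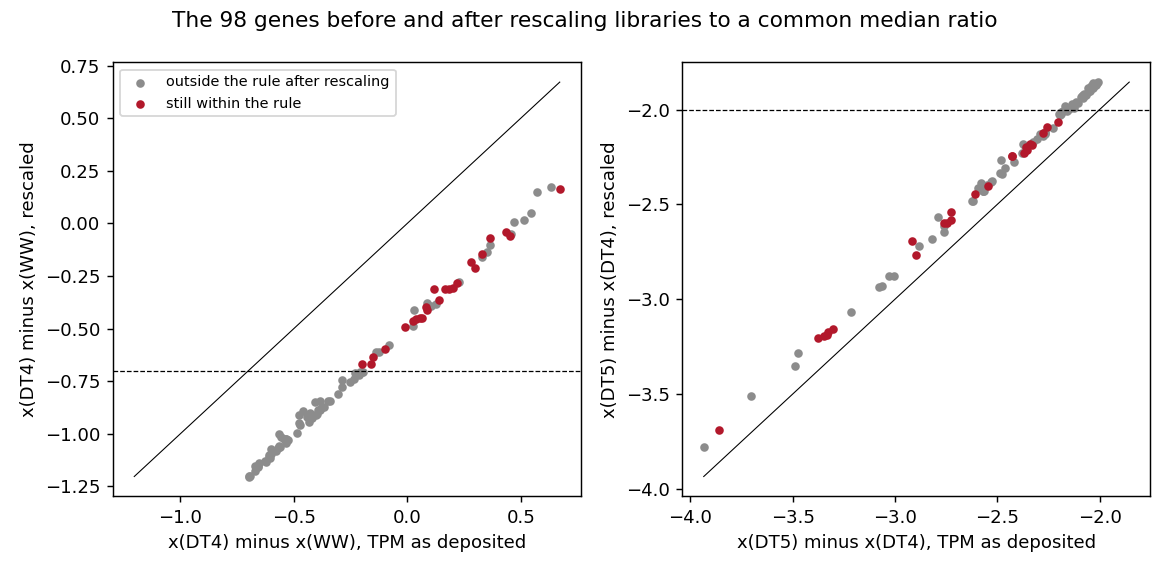
Each of the 98 genes with TPM as deposited (x axes) and after rescaling to a common median ratio (y axes), for x(DT4) minus x(WW) (left) and x(DT5) minus x(DT4) (right), log2 scale; dashed lines are the limits of -0.7 and -2 and the solid line marks equal values. Red points are the 24 genes still within the rule; all points lie below the line on the left and above it on the right.

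Genes outside the set, on lists for hormones, light, leaf growth, immunity, stomata, plastids, isoprenoids and transport, were compared between DT5 and DT4. Of these lists, only those for auxin, light signalling and leaf growth also held genes of the set. Glucosinolate, endoplasmic reticulum body, cell wall and flavonol genes had no list. The comparison used limma over all 10 libraries, with Benjamini-Hochberg adjustment over 18938 genes, of which 30.3% were lower and 16.0% higher at DT5. The split was 5747 lower and 3021 higher as deposited, and 4580 and 4116 after rescaling. Auxin genes outside the set were lower in 14 of 20 and higher in 0, with a median log2 change of -0.77 against -0.17 over all tested genes, and after rescaling 14 were lower. IAA14, an Aux/IAA repressor, had 36.4 and 51.0 TPM at DT4 and 5.61 and 3.73 at DT5 and fell by 2.98 (SE 0.20, limma adjusted p = 5.66e-06). IAA29, of the same family, fell by 1.87 (SE 0.28, limma adjusted p = 0.000456). Before that step they differed as deposited, IAA14 having been higher at DT4 than in WW, by 0.92, and IAA29 lower, by -1.30.

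Leaf growth and polarity factors were lower in 15 of 20 and higher in 0, with a median of -0.79, and 11 were lower after rescaling. GRF3 fell by 1.39 (SE 0.24, limma adjusted p = 0.00111), from a DT4 level above WW to its WW level (means of 5.96 TPM in WW, 17.7 at DT4 and 5.91 at DT5), and YAB3, a YABBY factor of leaf polarity, by 1.39 (SE 0.20, limma adjusted p = 0.000335). Light signalling genes were lower in 7 of 14 and higher in 0, with 7 lower after rescaling. RPT2, a partner of the phototropins, had 129 and 177 TPM at DT4 and 30.5 and 23.4 at DT5 and fell by 2.45 (SE 0.16, limma adjusted p = 4.48e-06), but it had 361 and 387 TPM in WW and so was lower before DT5. PIF5, the closest relative of PIF4 among the genes listed, fell by 1.91 (SE 0.12, limma adjusted p = 4.79e-06).

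Between DT4 and WW 64.7% of tested genes passed, 48.3% higher and 16.4% lower (9146 and 3100 genes), and after rescaling 4238 were higher and 5626 lower. Among the lists, most called genes were higher at DT4 for light signalling (8 higher and 1 lower), ethylene (6 and 0), leaf growth (6 and 2), gibberellin (5 and 2), plastid division and import (4 and 2) and brassinosteroid (3 and 2). Most were lower for stomatal genes (1 higher and 8 lower), cytokinin (2 and 5), isoprenoid (0 and 4) and ion transport (1 and 2). Auxin genes (7 and 7) and genes of pattern recognition immunity, receptors and their signalling partners (2 and 2), split evenly. After rescaling the counts higher and lower became 4 and 4 for light signalling, 2 and 1 for ethylene, 1 and 9 for leaf growth, 4 and 4 for gibberellin, 0 and 5 for plastid division and import, and 2 and 6 for brassinosteroid. They became 0 and 11 for stomatal genes, 0 and 7 for cytokinin, 0 and 8 for isoprenoid, and 1 and 3 for ion transport. For auxin they became 3 and 11, and for pattern recognition immunity 1 and 5.

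Brassinosteroid genes were lower in 8 of 11 (6 after rescaling, with 1 higher) and gibberellin genes in 7 of 10 with 1 higher. BES1, a brassinosteroid response factor, fell by 2.24 (SE 0.20, limma adjusted p = 2.18e-05) after being lower at DT4 than in WW by -0.80, and GID1B, a gibberellin receptor, rose by 1.07 (SE 0.28, limma adjusted p = 0.0105); without DT4-2 or DT5-1 GID1B no longer passed. Stomatal genes were lower in 5 of 13, ethylene genes in 4 of 7, cytokinin genes in 3 of 10, plastid division and import genes in 6 of 9, and ion transport genes in 2 of 5 tested, none higher. After rescaling those counts were 4, 2, 2, 3 and 0. The stomatal genes SPCH, MUTE, ERL1, EPF2, SDD1 and BASL had DT4 means of 0.5 TPM or less, which left little room for a lower call. STOMAGEN, a peptide that promotes stomata, fell by 1.73 (SE 0.14, limma adjusted p = 1.33e-05). Pattern recognition immunity genes split, with 4 of 10 lower and 2 higher, and 3 lower and 4 higher after rescaling. FLS2, the flagellin receptor, fell by 2.38 (SE 0.29, limma adjusted p = 0.000145). Its means were 12.9 TPM in WW, 30.7 at DT3, 8.63 at DT4 and 0.725 at DT5, so it was already lower at DT4 than at DT3. The 2 higher genes were LYK5, a chitin receptor, by 0.63, and BIK1, a kinase of immune receptors, by 0.49. Isoprenoid genes were lower in 4 of 8 and higher in 2, and after rescaling 3 were lower and 2 higher. DXS, the first enzyme of the plastid pathway, fell by 1.996 (SE 0.17, limma adjusted p = 1.55e-05), and was already lower at DT4 than in WW, by -0.95.

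Cell type markers moved unequally. The 6 epidermal markers, GL2 of the 98 among them, summed to 337 to 346 TPM in WW, 393 to 434 at DT4 and 294 to 337 at DT5. Of the 5 outside the set, 2 were lower at DT5 than at DT4 and none higher as deposited, while after rescaling 1 was higher. CER1, of wax synthesis, had means of 48.9 TPM in WW, 157 at DT4 and 87.9 at DT5. PDF2, an epidermal factor, had 51.4, 48.4 and 17.7. ATML1, of the same factor family, had 46.0, 25.8 and 23.1, and FDH, of cuticular fatty acid synthesis, had 186, 171 and 184.5. FDH and CER1 thus made up most of the epidermal sum, while ATML1, PDF2 and GL2 were lower at DT5 than in WW. The 6 vascular markers summed to 234 to 235 TPM in WW, 589 to 661 at DT4 and 1002 to 1195 at DT5, with 2 higher and 2 lower, and 3 higher and 1 lower after rescaling. None of the 4 root markers reached the filter. The vascular sum was mostly 2 companion cell genes. AHA3, a proton pump, had 78.7 and 79.9 TPM in WW and 833 and 685 at DT5. It rose from DT4 by 0.89 (SE 0.16, limma adjusted p = 0.00167). SUC2, a sucrose carrier, had 101 and 103 TPM in WW and 340 and 295 at DT5. It rose from DT4 by 0.71 (SE 0.14, limma adjusted p = 0.00273). SEOR1, a sieve element protein, and IRX3, a cellulose synthase of xylem walls, were lower, by -0.71 and -0.72. XCP1, a xylem protease, had 17.5 and 14.6 TPM in WW, 1.43 and 1.67 at DT4, and 1.81 and 0.27 at DT5. No defining marker of either list was at 0 in both libraries of a group, and the part of cell make-up in the values of the 98 genes was not tested.

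**Figure D5:**
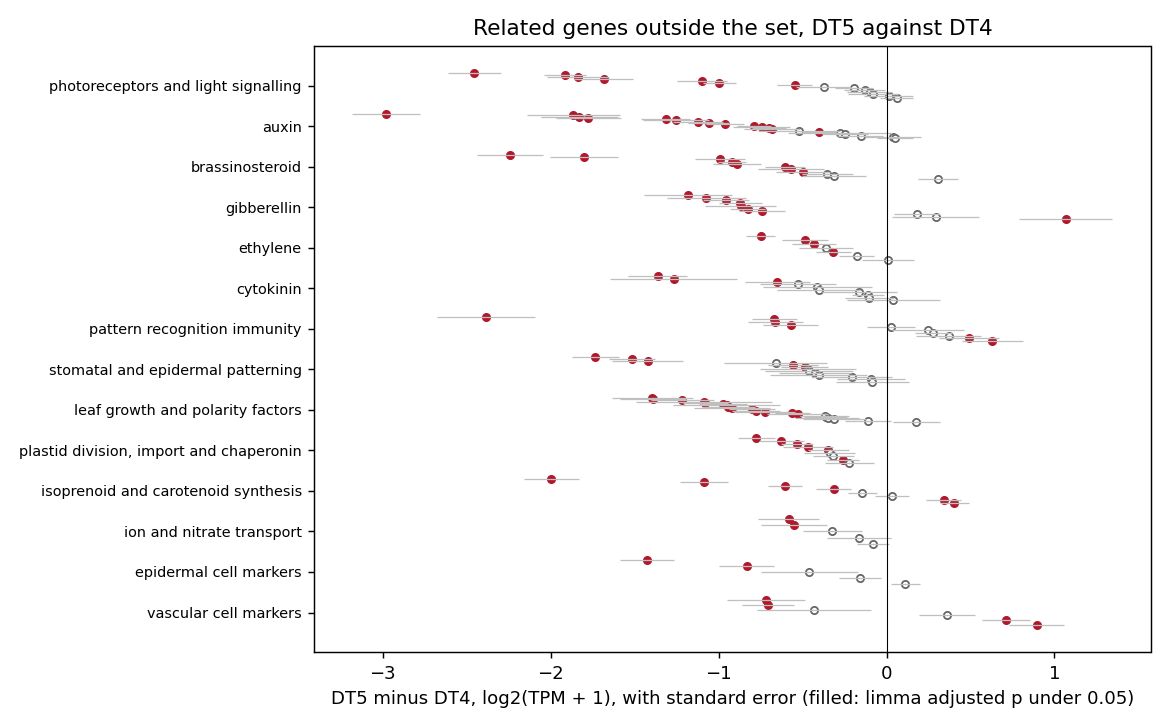
Log2 change from DT4 to DT5 (x axis, log2(TPM + 1), bars are the standard error of the limma fit) of each listed gene outside the 98, by list (y axis). Filled points passed an adjusted p of 0.05; those of the auxin and the leaf growth list all lie below 0.

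For a readout the rule did not use, the circRNA libraries held 8 circRNAs from 5 of the 98 genes (5.10%, against 4.44% of tested genes), all from exons. They were listed, that is above 0 in both libraries, in 4 of 8 cases in WW, in 3 for DT2, in 6 each for DT3 and DT4, and in 2 for DT5. Of all 1354 circRNAs, 38.9%, 37.8%, 36.3%, 43.6% and 44.2% were listed in the same order of groups. CircRNA abundance was deposited on a scale set for each library, on which the smallest value above 0 was 23.6 to 32.7. Of all circRNAs, 1 in WW and 0 in each drought group were at 0 in only 1 of the 2 libraries. A listed 0 is therefore not read as a measured absence. ARC5 gave a circRNA on chromosome 3, from 6854182 to 6854403 (TAIR10), of 54.0 and 74.7 at DT3 and 35.4 and 53.1 at DT4, which was listed at 0 in the other groups. CARAB-AK-LYS gave one on chromosome 5, from 4537775 to 4538092, of 85.7 and 123 in WW and 70.7 and 26.5 at DT4, which was listed at 0 at DT5.

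Only 2 of the 8 could be compared at DT5. The circRNA of SQE6, a squalene epoxidase gene, on chromosome 5 from 8185542 to 8185935, had 286 and 230 in WW, 118 and 92.8 at DT4, and 163 and 54.8 at DT5. Its DT5 value differed from DT4 by -0.15 (SE 0.59, limma adjusted p = 0.941) and from WW by -1.44 (SE 0.57, limma adjusted p = 0.223) on the log2 scale, and neither passed. The linear RNA of SQE6 had 25.3 and 42.3 TPM at DT4 and 8.11 and 4.36 at DT5. A circRNA of TSA1, on chromosome 1 from 19520929 to 19521714, had 58.9 and 26.5 at DT4 and 49.0 and 68.5 at DT5, a difference of 0.55 (SE 0.59, limma adjusted p = 0.858). Of the 282 circRNAs above 0 in every library of DT5 and DT4, 1.06% were called, and of the 236 above 0 in every library of DT5 and WW, 1.27%, of which 0.424% were higher and 0.847% lower. Whether circRNA and linear RNA of a gene changed differently was not tested.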

How the data were processed

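The linear values the authors deposited are TPM of single transcripts, per the file headers. For circRNAs the authors deposited a signal whose scale differs between libraries and is not stated. RSEM, BWA, edgeR and the build TAIR10 appear in the submitters' processing notes without version or role. The header of the linear table has 13 cells for 12 data fields; the cell naming the unit was read as a caption. Columns give group and number, and titles group and letter, so libraries were placed by group only. Nothing shows that equal numbers mark shared plants: none of 10 correlations of library differences passed 0.1. Replicates are pools of plants, and p-values measure the spread between pools.

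Transcripts (48359) were summed to genes. Genes with at least 1 TPM in at least 2 libraries entered limma 3.58.1 (R 4.3.3) as log2(TPM + 1), all groups in one fit, two-sided, Benjamini-Hochberg adjusted; fold changes on this scale understate those of low genes. For circRNAs, those above 0 in every library of both groups entered on log2 with moderated spread. The tests were checked on simulated data. RefSeq's gene table held 98 of the 98 genes, 50 of them with a symbol, and 27445 of 27655 table genes. Figures used matplotlib 3.10.9 under Python 3.11.15 with pandas 2.3.3.

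The genes and lists were chosen with earlier results of these data known. Named genes are the 12 largest falls, the 12 highest levels, those on the lists, hosts of circRNAs, the 3 on each side of the threshold, the 3 with the widest DT5 gap and the 3 highest of each word group; listed genes outside the set come from the 2 largest called changes each way per list, not all of which are printed; XCP1 was named after its values were seen. Genes named under roles beyond this were chosen after their values were seen. So were ATML1, FDH and the stomatal genes named for DT4 means of 0.5 TPM or less.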

Additional observations from a re-analysis of the deposited data

How the results depend on the processing

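The number of genes meeting the rule, 98, was 119 with a pseudocount of 0.5 and 96 with at least 5 TPM in WW. It was 190 with a pseudocount of 0.1, 35 after rescaling, 278 with a fall of 1.5, 38 with 2.5, 41 within 0.5 of WW, 185 within 1, and 41 where every DT5 library had to lie 2 below every DT4 library. Leaving out a library gave 52 (without DT4-2, 48 of the 98 kept) to 187 (without DT4-1, 91 kept). The literal reading of the header gives DT5 a single column and was not run. Of linear genes called between DT5 and DT4, 8768, only the 4 libraries gave 5742, and with the replicate block 8549. Nothing shows that the numbers pair the libraries.

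Of circRNAs called between DT5 and DT4, 3, all circRNAs gave 660, the replicate block 6, rescaling 0, and leaving out a library 1 to 4. Between DT5 and WW the 3 became 701 with all circRNAs, 0 with the replicate block, 0 with only the libraries compared, and 0 to 1 on leaving out a library. The TSA1 circRNA, 0.55, ranged from -0.025 (without DT4-2) to 1.13 on leaving out a library and that of SQE6 between DT5 and DT4, -0.15, from -0.93 to 0.64, with 0.03 without DT4-1. The SQE6 change against WW was -1.21 with all circRNAs (limma adjusted p 0.0345) and passed there. In that setting the circRNAs at 0 in both libraries, 755 at DT5 and 826 in WW, show no spread between libraries. The test shares the spread across circRNAs, so nothing is read from that pass or from the 660 and 701 calls. Of the 383 values of named listed genes under alternatives, 39 no longer passed and none changed sign. The causes were not tested. With 2 libraries per group and TPM without depth, low values are imprecise.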
